A study of Mus musculus with 8 samples.

Results

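The genes described here encode the proteins of the cytosolic ribosome. They were chosen by symbol: Rpl, Rplp or Rps followed by a number and at most 1 further letter (a, l, x or y). Only array transcript clusters annotated to that gene alone were used, a transcript cluster being the group of probes that the array sums into 1 value. The rule found 58 genes among the 19938 genes with such a cluster, 37 for the large subunit and 21 for the small subunit. In a RefSeq table all 58 had a matching entry, of which 57 were protein coding and 1, Rps4l, was a transcribed pseudogene. A further 16 ribosomal protein symbols, among them Rpl3, Rpl11, Rpl39, Rps24 and Rps27, occurred only on clusters that also carried other symbols, and are not analysed here.

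RNA came from the gastrocnemius, a calf muscle of mixed but mainly fast fibres, of 8 male mice, with 1 Affymetrix array for each animal. The 4 knockout animals (Gcn5skm-/-: HSAcre Tg/0 combined with Gcn5 L2/L2) carried a floxed Gcn5 gene, whose official symbol is Kat2a, and a Cre transgene. The 4 wild-type animals (Gcn5skm+/+: HSAcre 0/0 combined with Gcn5 L2/L2) carried the same floxed gene without Cre. The animals, 6 months of age and kept on chow, had gone without food for 5 h before death. HSA stands for the human skeletal actin promoter, which drives Cre in muscle fibres, so other cells of the muscle keep Gcn5. Cre was present in the knockouts alone, and an effect of Cre cannot be told apart from one of the deletion. Values are log2 expression values, differences are knockout minus wild type in log2 units, and each ± is an SD over 4 arrays.

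Ribosomes are built from ribosomal RNA and one copy of most ribosomal proteins, so cells make these proteins in matched amounts. The large subunit joins amino acids and holds the tunnel through which the new chain leaves, and the small subunit reads the mRNA. Most ribosomal protein mRNAs begin with a run of pyrimidines, the 5′ terminal oligopyrimidine (TOP) tract, through which mTORC1 and Larp1 set how much of the mRNA is translated. In muscle, feeding, fasting, load and growth change ribosome production. Translation itself was not measured: the arrays give mRNA levels.

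Because of the TOP tract, the transcription start regions of 6 members whose values are given later are shown. Each line holds 20 bases before and 20 bases from the start on, 5′ to 3′ on the gene's own strand, from RefSeq on build GRCm38.p6. Capitals mark the longest unbroken run of C or T that reaches within 10 bases of the start, where it has at least 8 bases.
Rps6, chr4:86857348-86857387, minus strand: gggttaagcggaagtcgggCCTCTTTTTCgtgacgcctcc
Rpl38, chr11:114668560-114668599, plus strand: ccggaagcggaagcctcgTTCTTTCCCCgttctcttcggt
Rplp2, chr7:141447631-141447670, plus strand: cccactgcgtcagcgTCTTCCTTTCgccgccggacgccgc
Rps9, chr7:3704021-3704060, plus strand: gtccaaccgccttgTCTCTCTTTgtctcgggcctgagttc
Rps19, chr7:24884572-24884611, plus strand: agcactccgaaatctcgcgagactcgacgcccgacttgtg
Rpl3l, chr17:24727806-24727845, plus strand: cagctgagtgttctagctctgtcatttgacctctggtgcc

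The run in capitals had 10 bases in Rps6, Rpl38 and Rplp2 and 9 bases in Rps9. At the first of 3 listed starts of Rps19 the longest such run had 4 bases, and at the first of 2 listed starts of Rpl3l it had 5 bases. Start positions came from the annotation and not from these samples, so the runs do not settle which mRNAs begin with a TOP tract. Of the 58 members, 46 had a start window in the RefSeq table. A run of at least 8 C or T within 10 bases on either side of a listed start was found in 14 of these 46 genes (30.4%), against 8.71% of the 27025 genes in that table. The same run on the opposite strand was found in 1 of the 46 (2.17%), against 9.89% of all genes in the table. In the 300 bases from 250 before to 50 after the start, CCGGAAG, the core bound by ETS-family factors, stood on either strand in 17 of 46 members (37.0%), against 9.93% of all genes. The Rpl38 line opens with these letters. ATGGCGG, the core bound by Yy1, stood on either strand in 7 of 46 members (15.2%), against 4.69% of all genes. The 2 motifs were counted separately and may overlap in a window. These matches describe letters in the windows and show no binding.

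The label check and the state of the arrays come first. Kat2a was 6.46 ± 0.03 in wild type and 5.79 ± 0.05 in knockout muscle, a difference of -0.66 (limma, adjusted p = 0.0319). Every knockout lay below every wild type, and Kat2a missed the threshold when any array other than wild type 1 or wild type 2 was left out (adjusted p 0.0619 to 0.137). Wild type 2 stood apart from the other arrays, at 32.2 on the first principal component, where the next highest, wild type 4, lay at 7.27. The mean of 11 muscle-fibre markers was even, between 11.9 and 12.0 in all 8 arrays. The mean of 11 slow-fibre markers was 5.88, 7.47, 5.95 and 7.29 in wild type 1 to 4 and 6.67, 7.60, 7.96 and 5.25 in knockout 1 to 4. The mean of 22 macrophage markers was 5.30 to 5.41 in wild type and 5.46 to 6.01 in knockout, with 20 of 22 genes higher in knockout (median difference 0.23) and knockout 4 the highest. None of the 22 was called, and 10 were higher at an unadjusted p under 0.05. Lists of markers of lymphocytes, erythroid, endothelial, fibro-adipogenic and satellite cells and of fast fibres held no called gene either, with medians from -0.05 to 0.16. The part of fibre type or macrophages in the values that follow was not tested. In bulk tissue, fewer cells of a type and less RNA per cell cannot be told apart.

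No ribosomal protein gene passed an adjusted p of 0.05 between knockout and wild type, and none passed 0.10 (limma, Benjamini-Hochberg adjustment over 19938 genes). Over all genes 3 were called at 0.05 (0.015%) and 16 at 0.10 (0.0802%). The lowest adjusted p of a member was 0.434, for Rps19. Differences ran from -0.13 for Rpl9 to 0.45 for Rpl41, with a median of 0.04 over the 58 members and -0.01 over all genes. The 95% interval of the difference, which is not adjusted for the number of genes, lay wholly between -0.5 and 0.5 for 54 of the 58 and between -0.3 and 0.3 for 35. The SE of a member's difference was between 0.0766 and 0.196, so these arrays could not show shifts of a few percent in a single gene.

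Without adjustment, 4 members were higher in knockout at p under 0.05 (Rps19, Rps9, Rpl29 and Rpl41), where 2.34% of all genes were. At the same p 0 members were lower, where 3.39% of all genes were. In 5 members (8.62%) every knockout array lay above every wild-type array: Rps19, Rps9, Rplp2, Rpl23 and Rpl36. Over all genes that share was 1.48%. In 0 members every knockout lay below every wild type, against 2.14% of all genes. In all other members the groups overlapped. No filter on low values was applied, so all 58 entered the fit.

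The sign of the difference was split by subunit. Of 58 members 36 had a difference above 0 (62.1%), against 45.3% of all genes. In the large subunit it was 28 of 37 (75.7%) with a median of 0.05, and in the small subunit 8 of 21 (38.1%) with a median of -0.02. The large-subunit median exceeded the small-subunit one by 0.07. Quantile and cyclic loess normalization moved both subunits up and kept this gap, while small-subunit genes near 0 changed sign. Median centring moved both down, to medians of 0.04 and -0.03, with a gap of 0.07. There 26 of 37 and 8 of 21 genes were above 0, against 40.2% of all genes. After quantile normalization 29 of 37 large-subunit and 14 of 21 small-subunit genes were above 0, with medians of 0.09 and 0.02, and after cyclic loess normalization 29 and 16, again with medians of 0.09 and 0.02. The gap was 0.07 and 0.08, and the share above 0 over all genes was 49.9% and 50.3%. The gap rested in part on wild type 2 and wild type 4. Without wild type 2, 32 of 37 and 16 of 21 genes were above 0, with medians of 0.08 and 0.06 and a gap of 0.01, and without wild type 4 the gap was 0.04. With array weights it was 0.05. The difference between the subunits was not tested, because genes of one set of arrays are not replicates.

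**Figure D1:**
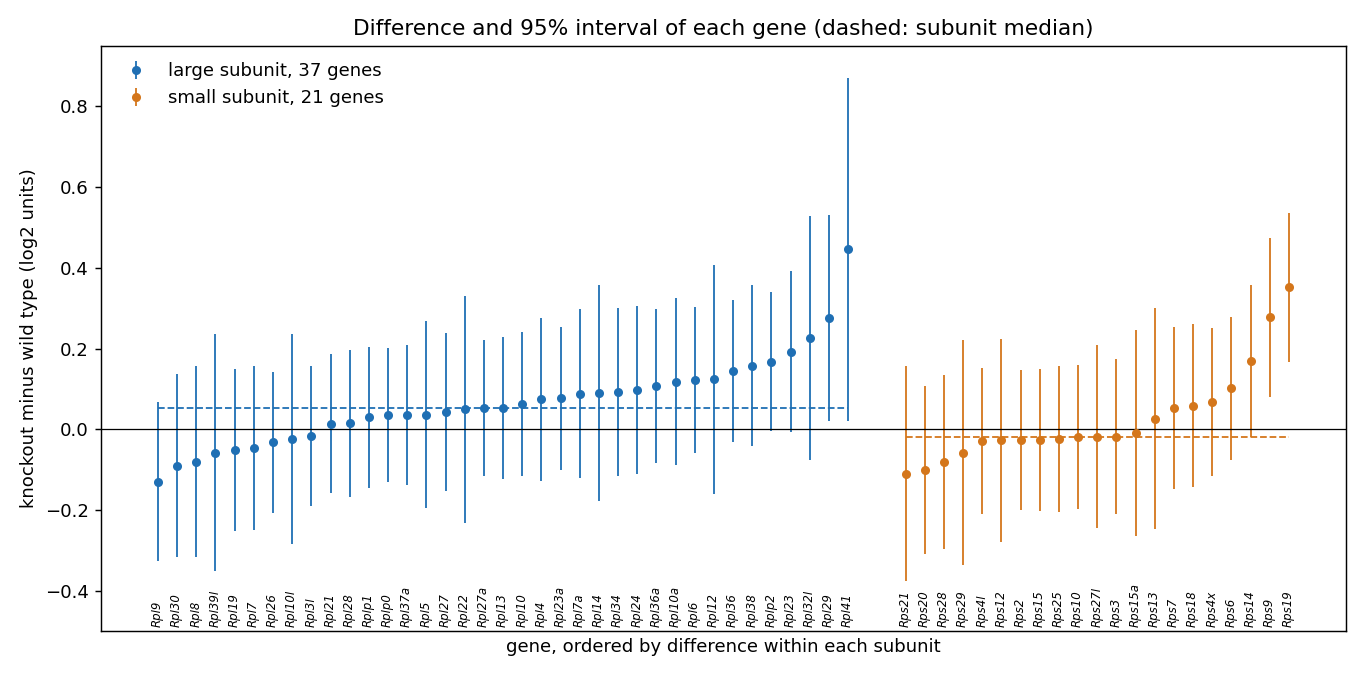
Difference between knockout and wild type (vertical axis, log2 units) for each of the 58 ribosomal protein genes, ordered within the large subunit (37 genes) and the small subunit (21 genes); bars are 95% intervals from limma and dashed lines the medians of 0.05 and -0.02. The intervals of Rpl29, Rpl41, Rps9 and Rps19 lie above 0, those of the other 54 members include 0, and none passed after adjustment over all genes.

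In the small subunit, Rps19 had the smallest p. Its protein sits in the head of the subunit, is needed to process the 3′ end of 18S rRNA, and is the one most often mutated in Diamond-Blackfan anaemia. Rps19 values were 7.24, 6.99, 7.20 and 7.09 in wild type 1 to 4 and 7.49, 7.48, 7.49 and 7.46 in knockout 1 to 4. The groups did not overlap, and the knockout arrays lay closer together than the wild-type ones (SD 0.01 against 0.11). The difference was 0.35 with SE 0.0850, or 1.28-fold (95% interval 0.17 to 0.54 in log2 units, unadjusted p = 0.00133 and adjusted p = 0.434 by limma). It lay between 0.30 and 0.39 when each array was left out in turn.

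Rps9 encodes a protein at the mRNA entry channel that bears on the accuracy of decoding. Its values were 8.06, 8.08, 8.05 and 7.93 in wild type and 8.32, 8.26, 8.17 and 8.48 in knockout. All knockouts were above all wild types, and knockout 4 was the highest. The difference was 0.28 with SE 0.0910 (adjusted p = 0.802, limma). A second Rps9 cluster gave -0.06, with values of 7.75 to 8.34 in wild type that covered the whole knockout range of 7.78 to 8.08. The clusters of Rps9 thus differed by 0.34, the widest disagreement among the members.

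Rps14, a platform protein near the mRNA exit, had values of 9.21, 9.04, 9.04 and 9.004 in wild type and 9.29, 9.20, 9.14 and 9.34 in knockout. Wild type 1 lay within the knockout range, the difference was 0.17 (adjusted p = 0.869, limma), and its second cluster gave -0.02. Rps6, the subunit's target of the S6 kinases downstream of mTORC1, had values of 11.55, 11.49, 11.42 and 11.36 in wild type and 11.53, 11.53, 11.60 and 11.56 in knockout. Wild type 1 exceeded knockout 1 and knockout 2, and the difference was 0.10 (adjusted p = 0.900, limma). All 8 Rps6 clusters lay above 0, between 0.06 and 0.19.

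Other small-subunit genes had lower means in knockout with groups that overlapped. Rps21 was 6.22, 6.65, 6.14 and 6.55 in wild type and 6.22, 6.30, 6.17 and 6.44 in knockout, a difference of -0.11 (adjusted p = 0.930, limma). Rps20, in the head of the subunit, was 10.15, 10.20, 9.95 and 10.19 in wild type and 10.10, 9.92, 9.91 and 10.16 in knockout, a difference of -0.10. Rps28, at the mRNA exit, was 8.09, 8.40, 8.07 and 8.17 in wild type and 8.03, 8.03, 8.08 and 8.26 in knockout, a difference of -0.08. In Rps21 and Rps20 wild type 2 and wild type 4 were the highest of all 8 arrays, and in Rps28 wild type 2 was. All 7 Rps28 clusters had a lower mean in knockout.

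**Figure D2:**
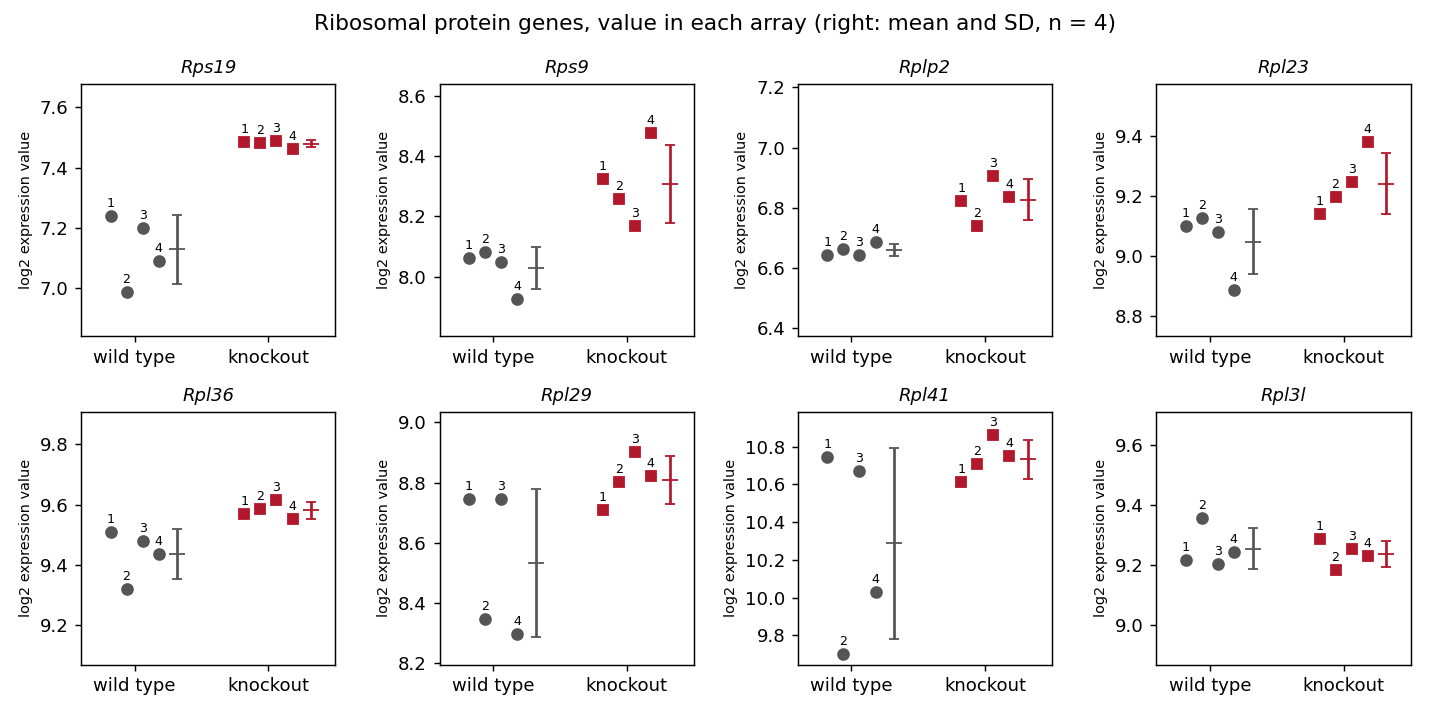
Value of 8 ribosomal protein genes in each array (vertical axis, log2 expression value, with its own range in each panel), numbered by replicate, with mean and SD over 4 arrays beside each group. Knockout and wild type do not overlap in Rps19, Rps9, Rplp2, Rpl23 and Rpl36; in Rpl29 and Rpl41 wild type 2 and wild type 4 lie low while wild type 1 and wild type 3 lie near the knockouts; Rpl3l is level.

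In the large subunit, Rpl41 had the highest difference. It encodes the shortest protein of the ribosome, which lies at the contact with the small subunit. Rpl41 values were 10.75, 9.70, 10.67 and 10.03 in wild type and 10.62, 10.71, 10.86 and 10.75 in knockout. Wild type 1 and wild type 3 were within the knockout range, and only wild type 2 and wild type 4 were below it. The difference was 0.45 with SE 0.196 (adjusted p = 0.861, limma) and fell to 0.25 without wild type 2. The other 2 Rpl41 clusters held the same values, so they add no second measurement.

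Rpl29 encodes a small protein of the large subunit that mice can lack, at the cost of reduced growth. Its values were 8.74, 8.35, 8.74 and 8.30 in wild type and 8.71, 8.80, 8.90 and 8.82 in knockout. As in Rpl41, wild type 2 and wild type 4 were low, and wild type 1 and wild type 3 were above knockout 1. The difference was 0.28 with SE 0.117 (adjusted p = 0.861, limma).

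Rplp2, one of the acidic stalk proteins that draw elongation factors to the ribosome, had values of 6.64, 6.66, 6.64 and 6.69 in wild type and 6.82, 6.74, 6.91 and 6.84 in knockout. The groups did not overlap, and the wild-type arrays spanned less than the gap between the group means. The difference was 0.17 with SE 0.0789 (adjusted p = 0.861, limma). The other stalk genes had smaller differences. Rplp0, which anchors the stalk, was 11.25, 11.23, 11.24 and 11.26 in wild type and 11.33, 11.24, 11.31 and 11.25 in knockout, a difference of 0.04. Rplp1, the partner of Rplp2, was 10.55, 10.53, 10.52 and 10.58 in wild type and 10.66, 10.49, 10.53 and 10.62 in knockout, a difference of 0.03. Both overlapped between the groups, and the second Rplp1 cluster gave -0.14.

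Rpl23, at the face that meets the small subunit, was 9.10, 9.13, 9.08 and 8.89 in wild type and 9.14, 9.20, 9.25 and 9.38 in knockout. The groups were separate, though knockout 1 and wild type 2 nearly met, and the difference was 0.19 (adjusted p = 0.861, limma). A second, dimmer Rpl23 cluster gave 0.02. Rpl36, another large-subunit protein, was 9.51, 9.32, 9.48 and 9.44 in wild type and 9.57, 9.58, 9.62 and 9.55 in knockout. These groups were also separate, with a difference of 0.14 (adjusted p = 0.876, limma), and all 9 Rpl36 clusters lay between 0.11 and 0.16.

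Rpl38, a protein near the tunnel exit whose loss in the Tail-short mouse alters the translation of Hox mRNAs, was 9.77, 9.62, 9.55 and 9.52 in wild type and 9.63, 9.79, 9.85 and 9.82 in knockout. The groups overlapped through wild type 1 and knockout 1, and the difference was 0.16 (adjusted p = 0.876, limma). Rpl5, which carries 5S rRNA into the large subunit and can bind Mdm2, was 9.35, 9.56, 9.09 and 9.26 in wild type and 9.28, 9.28, 9.38 and 9.48 in knockout. Wild type 2 was its highest and wild type 3 its lowest array, and the difference of 0.04 turned to -0.04 without wild type 3. Rpl9 had the lowest difference of all members, -0.13 (adjusted p = 0.877, limma). Its values were 9.85, 9.97, 9.69 and 9.9996 in wild type and 9.78, 9.73, 9.75 and 9.73 in knockout. Wild type 3 was the lowest of the 8 arrays and the other wild types were above every knockout, and all 8 Rpl9 clusters had a lower mean in knockout, down to -0.13.

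Some members are derived paralogs with restricted expression, which can replace the common protein in a few tissues. Rpl3l, the form of Rpl3 found in skeletal muscle and heart, was 9.22, 9.36, 9.20 and 9.24 in wild type and 9.29, 9.18, 9.25 and 9.23 in knockout. The groups overlapped almost fully, with a difference of -0.02 (95% interval -0.19 to 0.16, adjusted p = 0.985 by limma). Its sign changed to 0.01 after quantile and 0.02 after cyclic loess normalization. Its partner Rpl3 had no cluster of its own, so no exchange between the forms could be examined.

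Rpl10l, a copy of the X-linked Rpl10 used in male germ cells, differed by -0.02, with arrays from 5.24 to 5.67 in wild type and 5.26 to 5.71 in knockout. Rpl10 itself, which joins the large subunit late in its assembly, was 11.18, 11.17, 11.12 and 11.23 in wild type and 11.31, 11.15, 11.17 and 11.31 in knockout. Its difference was 0.06, and all 6 Rpl10 clusters lay between 0.05 and 0.07. Rpl39l, a copy of Rpl39 best known from testis, was dim, at 2.43 ± 0.30 in wild type and 2.37 ± 0.11 in knockout. Rps27l, a p53 target related to Rps27, was 8.94 ± 0.20 in wild type and 8.92 ± 0.07 in knockout, a difference of -0.02 that turned to 0.06 without wild type 2. No paralog separated the groups.

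Rpl12 and Rps4l were dim for members, whose median level was 8.80, but lay near the median level of all genes, 4.98. Rpl12, at the base of the stalk, was 4.91, 4.60, 4.41 and 4.92 in wild type and 4.79, 4.78, 4.67 and 5.09 in knockout, a difference of 0.12 (95% interval -0.16 to 0.41). Its groups overlapped widely. Rps4l, the transcribed pseudogene related to Rps4x, was 5.21 ± 0.09 in wild type and 5.18 ± 0.05 in knockout. At the bright end, Rpl21 was 11.47, 11.51, 11.49 and 11.42 in wild type and 11.40, 11.50, 11.55 and 11.48 in knockout, a difference of 0.01. Its interval, -0.16 to 0.19, was narrower than that of Rpl12.

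By position in the ribosome, no group of members held a called gene. The lists that follow were drawn up from textbook structure, with earlier results of these data known. All 3 stalk genes had a difference above 0, with a median of 0.04. Of 10 genes of the peptide tunnel and its exit 6 were measured, 4 above 0, with a median of 0.06 and a range from -0.05 for Rpl19 to 0.16 for Rpl38. The sign of Rpl19 depended on the cluster used, as 6 of its 7 clusters were above 0, with a mean of 0.05. Rpl23a, counted above 0, had 5 of 13 clusters above 0. A last large-subunit list, of mixed position, held 7 genes: Rpl3, Rpl8, Rpl10, Rpl10a, Rpl23, Rpl29 and Rpl41. Of these 6 were measured, 5 above 0, with a median of 0.16, the highest of these lists. The list held Rpl41, Rpl29 and Rpl23, which were among the large-subunit genes with the smallest p, and the exception was Rpl8 at -0.08. Its median therefore does not describe 1 place in the ribosome.

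In the small subunit, 4 of 6 genes of mRNA entry and decoding were measured, and only Rps9 was above 0, with a median of -0.02. Rps2 (-0.03), Rps15 (-0.03) and Rps3 (-0.02) were the others. Of 5 genes of the mRNA exit and platform 3 were measured, with Rps14 and Rps7 above 0, Rps28 below, and a median of 0.05. Of 9 genes of the head 7 were measured, of which Rps19 and Rps18 were above 0, with a median of -0.02. Of 18 genes mutated in Diamond-Blackfan anaemia 8 were measured, 4 above 0, with a median of 0.01 and a range from -0.08 for Rps28 to 0.35 for Rps19.

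Single arrays spanned a wider range than the difference between the groups. After each gene was centred on its mean over the 8 arrays, the median of the large-subunit genes was 0.01, -0.02, -0.09 and -0.07 in wild type 1 to 4 and 0.02, -0.02, 0.02 and 0.10 in knockout 1 to 4. For the small-subunit genes it was -0.0011, 0.11, -0.11 and -0.02 in wild type and 0.02, -0.03, -0.01 and 0.09 in knockout. Wild type 2 was the only array in which the subunits lay apart by more than 0.1, and it was the highest array for 11 of 21 small-subunit genes. Wild type 3 or wild type 4 was the lowest array for 38 of the 58 members, against 26.3% of all genes. Wild type 2 held the highest value of 19 members (32.8%), against 24.6% of all genes, and knockout 4 that of 15 (25.9%), against 10.7%.

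**Figure D3:**
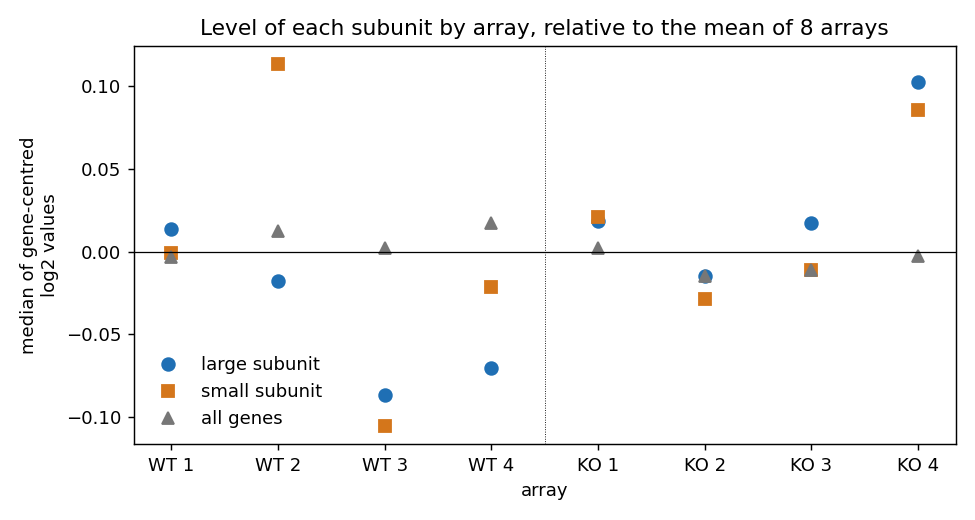
Median over large-subunit genes, small-subunit genes and all genes of the log2 values after each gene was centred on its mean over 8 arrays (vertical axis), for wild type (WT) and knockout (KO) 1 to 4. The subunits lie together in most arrays but apart in WT 2, at -0.02 and 0.11; both are lowest in WT 3, and both are high in KO 4, at 0.10 and 0.09.

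Wild-type arrays were the more variable for most members. The SD was higher in wild type than in knockout for 42 of 58, with median SDs of 0.111 and 0.0774. The same held for 67.6% of all genes, with medians of 0.161 and 0.115, so the members shared it with the rest of the array. In 5 members (8.62%) wild type 2 and wild type 4 were both below the other 6 arrays, close to the 7.69% of all genes. They were Rps19, Rpl29, Rpl36, Rpl41 and Rpl32l, named here after their values were seen. In 6 members (10.3%) wild type 2 and wild type 4 were both above the other 6 arrays, close to the 10.7% of all genes. Both of these wild types had slow-fibre marker means above 7, and the other wild types below 6. Knockout 2 and knockout 3 had higher slow-fibre means still, 7.60 and 7.96. These members were picked for wild type 2 and wild type 4 standing apart from the other 6 arrays. The place of the knockouts in them was fixed by that choice and tells nothing about fibre type. The part of fibre type in these values was not tested.

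Many members had several transcript clusters, and the counts that follow take in all of them, the clusters already used included. Ribosomal protein genes have many processed copies of near-identical sequence in the genome, and a probe can bind more than 1 of them, so clusters of a gene are not independent measurements and some may report a copy. The 58 members had 210 clusters, up to 14 for Rps12, with 20 members on a single cluster. Some clusters of Rps12, Rps28, Rpl23a and Rpl27 held the same values in every array, as those of Rpl41 did. Counts over clusters thus weight genes by their number of clusters and are no second measurement. Of the 210 clusters 131 had a difference above 0 (62.4%), against 45.8% of all 35556 deposited clusters. It was 100 of 131 in the large subunit (76.3%) and 31 of 79 in the small subunit (39.2%). Among the 38 genes with several clusters, all clusters were above 0 in 15, all below in 8, and the sign was mixed in 15. The median spread between clusters of a gene, highest minus lowest difference, was 0.10 over these 38 genes. A spread is never negative, so it is not comparable with the signed median difference over the members. With adjustment over all clusters 0 of the 210 passed 0.05, as did 0 of all 35556 (0%), and the lowest adjusted p of a member cluster was 0.588 (limma). At an unadjusted p under 0.05, 4 of the 210 were higher (1.90%), those of Rps19, Rps9 and Rplp2 and another Rpl10a cluster at 0.24, against 2.43% of all clusters. At the same p 0 were lower, against 3.79% of all clusters. A further 233 clusters paired a ribosomal protein symbol with other symbols. They could not be assigned to a gene, and 147 of them were above 0 (63.1%).

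**Figure D4:**
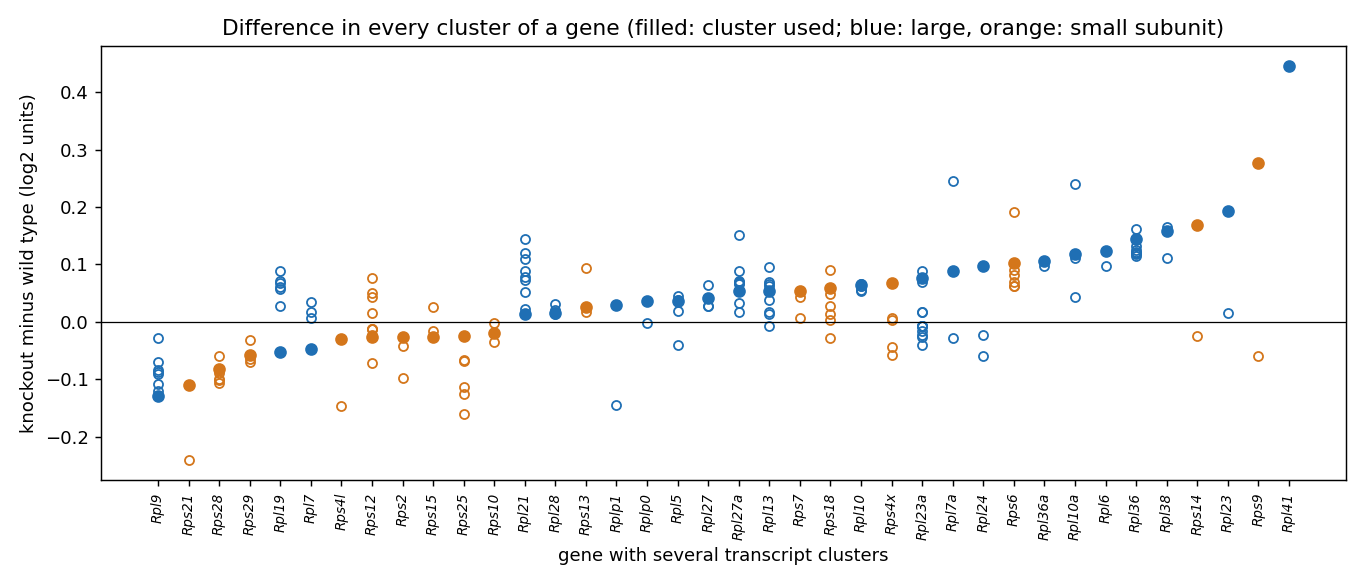
Difference between knockout and wild type (vertical axis, log2 units) in every transcript cluster of the 38 ribosomal protein genes with several clusters; filled points are the cluster used, open points the others, blue for large-subunit and orange for small-subunit genes. Clusters agree closely in Rpl36 and Rpl10 and lie on both sides of 0 in Rps9, Rpl23a and Rplp1. The 3 clusters of Rpl41 hold the same values, and the clusters of Rps9 span 0.34.

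Genes that make or use ribosomes were examined beside the members, and none of these lists held a called gene. Of 10 ribosomal protein genes outside the symbol rule or with a derived name 4 were measured, 2 above 0, with a median of -0.01. Among the 4 was Rps4l, at -0.03, which is also counted among the members. Rpl7l1, a relative of Rpl7, was 7.29, 7.55, 7.28 and 7.39 in wild type and 7.36, 7.27, 7.26 and 7.21 in knockout, a difference of -0.10 with groups that overlapped (adjusted p = 0.911, limma). Fau, whose product is a fusion with the small-subunit protein Rps30, was 9.64, 9.54, 9.59 and 9.61 in wild type and 9.65, 9.69, 9.66 and 9.65 in knockout. All knockouts lay above all wild types, by a difference of 0.07 that was smaller than its SE of 0.0767 and came to 0.0058 as the mean over its clusters. Of 52 ribosome biogenesis factors, all measured, 31 were above 0, with a median of 0.01. The smallest p values there were those of Imp3 at -0.19 and Mphosph10 at 0.13, which act together in early 18S processing. Of 15 measured genes of RNA polymerase I and its factors 6 were above 0, with a median of -0.02, among them Polr1c at 0.24 and, below 0, Taf1c at -0.13. Of 14 ribosomal protein chaperones and importers 7 were above 0. Grwd1, a chaperone of Rpl3, had all knockouts below all wild types, at 5.73, 5.89, 5.70 and 5.92 against 5.68, 5.49, 5.60 and 5.52, a difference of -0.24 (adjusted p = 0.859, limma).

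Translation factors did not pass the threshold either. Of 34 measured initiation factors 14 were above 0, with a median of -0.01, among them Eif2b1 at 0.18, a subunit of the exchange factor of eIF2, while Eif4h was at -0.14. Of 13 measured elongation and termination factors 6 were above 0. Gspt2, a termination factor, was dim and lower in every knockout, at -0.27, and Eif5a was at -0.17. Other genes with TOP mRNAs gave 10 of 16 above 0 (62.5%), with a median of 0.01, and Naca (-0.22) and Vim (-0.19) were below 0.

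Of 26 measured genes of the mTORC1 pathway and of TOP mRNA control 8 were above 0, with a median of -0.04. Myc, which drives transcription of ribosomal protein and ribosome biogenesis genes, was 5.54, 5.03, 5.69 and 5.01 in wild type and 5.57, 5.80, 5.90 and 5.89 in knockout. Wild type 2 and wild type 4 were again low, wild type 3 lay above knockout 1, and the difference was 0.47 (adjusted p = 0.802, limma). Eif4ebp2, which holds back the cap-binding factor, was at -0.27. The 76 genes of the mitochondrial ribosome, a separate machine encoded by other genes, gave 43 above 0 with a median of 0.02, with Mrpl22 at 0.38 and Mrpl24 at 0.27 and none called.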

How the data were processed

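Total RNA of 8 muscles was hybridised to Affymetrix whole-transcript arrays, 1 per animal. The table that the authors deposited holds log2 values. The submitters' processing notes name RMA and Affymetrix Expression Console. Version, settings and genome build of the array are not given in the sources used here, nor are scan batches. RMA narrows differences of dim transcripts, and values of different probes are not comparable as levels. The number of arrays limits the precision.

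Of 35556 clusters, 21789 carried 1 symbol in the array annotation, 1621 several, and 12146 were unnamed here. The cluster with the highest mean represented each of 19938 genes, with no filter. The genotypes were compared by limma 3.58.1 (lmFit, eBayes; R 4.3.3), and p-values were adjusted by Benjamini and Hochberg's method over every gene. The fit was tested on simulated data. Groups came from the labelled genotype.

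The members, lists and tests were chosen with earlier results of these data known. Named are the 6 members with the smallest p per subunit, the stalk genes, paralog pairs, Rpl5, Rps6, the 3 members with the highest and the 3 with the lowest mean, members whose groups do not overlap, members with several clusters, and 2 genes per other list. Rpl8, Rps3 and Rpl32l were named after their values were seen. Start sequences were read with Python 3.11.15, and figures drawn with matplotlib 3.10.9. Alternatives were other normalizations, filters on dim genes, the mean over clusters, another prior, array weights, a replicate block, each array left out, wild type 2 and knockout 4 left out together, all clusters, another threshold, other member rules and the mean over members. No value of a single array was imputed or dropped otherwise.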

Additional observations from a re-analysis of the deposited data

Results flagged for a closer look

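Each named gene's 4 values per group were checked for a sample far from the others. The 62 named genes gave most, but not all, of the 130 sets of values checked. Of the 130, 3 held such a sample, where chance gives about 1 in 20. Rpl23a, a protein at the tunnel exit, was 9.08 in knockout 4, where the other knockouts lay between 8.91 and 8.94. In the cluster used, its difference of 0.08 stayed above 0 without any single array (0.04 to 0.10). Of the 13 Rpl23a clusters 5 were above 0, and the mean over clusters was 0.01. Eif4h, a helper of the initiation helicase, was 7.61 in knockout 3, where the other knockouts lay between 7.67 and 7.68. Bpgm, an erythroid marker, was 6.36 in wild type 4, where the other wild types lay between 6.71 and 6.75.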

How the results depend on the processing

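The count of ribosomal protein genes past the threshold was 0 under every alternative run, the replicate block included, with lowest adjusted p from 0.243 (dimmest 50% of genes left out) to 0.976 (without wild type 4). At an unadjusted p under 0.05, 2 to 8 members were found. The median over the members stayed above 0 under every alternative, from 0.02 to 0.08, and so did that of the large subunit, from 0.03 to 0.09. The small-subunit median ran from -0.0411 to 0.0627 with an array left out and was 0.0138 without wild type 2 and knockout 4 together; the mean in place of the median gave 0.03.

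Among named genes, 1064 of 1104 values under an alternative kept direction and side of the threshold. Quantile normalization turned Rpl3l to 0.0111, Rps27l to 0.0144 and Rpl21 to -0.00749. Cyclic loess turned Rpl3l to 0.0222, Rps27l to 0.0214 and Rps2 to 0.00574. Array weights turned Rpl3l to 0.00763 and Rps27l to 0.0490, median centring turned Rpl21 to -0.00163, and the mean over clusters turned Rplp1 to -0.0576. Without wild type 2 and knockout 4 together, Rpl3l was 0.0192, Rpl10l 0.0314, Rpl39l 0.0170, Rps27l 0.0380 and the fibre marker Mb 0.0528. With an array left out the sign was not stable for Rpl3l (-0.0332 to 0.0170), Rpl10l (-0.110 to 0.0409), Rpl39l (-0.188 to 0.0551), Rps27l (-0.0869 to 0.0627), Rpl5 (-0.0389 to 0.118), Rps4l (-0.0596 to 0.00989), Rpl21 (-0.0101 to 0.0404), the fast-fibre marker Myh2 (-0.820 to 0.0107) and Mb (-0.342 to 0.0644). The cause was not tested.

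The labels give no pairing of animals by replicate number. Deviations of same-numbered arrays correlated at 0.09, 0.07, 0.22 and -0.10, which does not settle whether animals were paired. The replicate block left 0 genes called over the whole array in place of 3, and Kat2a had an adjusted p of 0.113 with it and 0.135 without wild type 2 and knockout 4 (limma).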
